A study of Rattus norvegicus with 16 samples.

Results

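The comparison described here set soleus muscle of untrained rats bred for high running capacity against soleus muscle of untrained rats bred for low running capacity. High capacity runners (HCR) and low capacity runners (LCR) are lines that were separated by selective breeding from the N:NIH stock, with each generation tested on the treadmill at an age of 11 weeks. The arrays were chosen by their titles alone, as the 4 HCR sedentary and the 4 LCR sedentary arrays, and together they are 8 of the 16 arrays of the series. All rats were females of generation 16, killed at about 7 months, and each array held total RNA from 20 mg of soleus of 1 rat, so n = 4 rats per group. The groups were HCR sedentary, LCR sedentary, HCR trained and LCR trained. Trained rats ran uphill intervals in 1.5-hour sessions on 5 days per week for 8 weeks and were sampled 48 hours after the last session. Sedentary rats were handled alike but had neither training nor tests of maximal oxygen uptake. All groups carry the history of 1 selection experiment, so a line difference can reflect selection or chance fixation of alleles, and these cannot be told apart with 1 line in each direction.

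The soleus is a postural muscle of the lower hind limb in which slow, oxidative fibres prevail. Such fibres carry the slow myosin heavy chain, much myoglobin and many mitochondria, and they draw on fatty acids for sustained work. Aerobic capacity is known to depend on oxygen delivery by heart and vessels as well as on oxidation in muscle. The comparison asks which transcripts of resting muscle differ between the lines before any training.

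Expression is given as log2 signal per probe set, a group of short probes for 1 transcript, so a difference of 1 is a factor of 2 in signal. Each difference is HCR minus LCR sedentary, and array values are given in replicate order. Values of separate probe sets cannot be set against each other, because probes bind with unequal strength. The fit with limma used all 16 arrays to estimate the spread, and a probe set passed at a Benjamini-Hochberg adjusted p under 0.05 over all 31042 probe sets.

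The tissue check gave skeletal muscle in both groups. The 16 muscle identity genes had mean signals from 9.88 to 14.49, and 0 of them reached an unadjusted p under 0.05. Of 16 markers of other organs, 11 had a 16-array mean under 5.61, the 40th percentile of the table, and the highest mean was 7.26. Albumin (Alb), a liver product, was high on single arrays, with 8.12, 10.46, 5.15 and 5.39 in HCR rats, against 5.07, 4.99, 5.03 and 5.26 in LCR rats. HCR 1 and HCR 2 stood above all other sedentary arrays for Alb. Rup2, a rat urinary protein gene, was chosen after its values were seen. A probe set of Rup2 gave 5.95, 8.84, 4.01 and 3.95 in HCR rats, against 3.95, 3.85, 3.92 and 4.10 in LCR rats. It was high on the same 2 arrays. The part of these transcripts in other differences was not tested.

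Array HCR 2 stood apart from the other 7. On it 368 probe sets lay at least 1 log2 unit above the range of the other 7 arrays and 152 lay as far below, while every other array had 0 to 3 above and 0 to 17 below. It lay at -63.2 on the first principal component, which held 43.1% of the variance of the 8 arrays, and the others lay between -3.57 and 23.5. Its mean correlation with the other arrays was 0.967, against 0.982 to 0.987 for the rest. Its beta-actin index, the 3' minus the middle control probe set, was 0.384, against 1.32 to 1.59 on the other HCR arrays and 1.33 to 2.07 on the LCR arrays. Results that move by more than 1.5 times when this array is left out are therefore given with and without it. Exceptions are further probe sets of a gene and some differences near 0, so a value given once need not be stable to HCR 2. The beta-actin index did not separate the lines (exact permutation test, two-sided, p = 0.171, adjusted over 3 measures 0.514), nor did the GAPDH index (p = 0.571, adjusted 0.857) or the spike-in mean (p = 0.943, adjusted 0.943), in a design whose smallest possible p is 0.0286. The trained array HCR trained 3, which enters the shared estimate of spread, also stood apart, where Myh7 read 12.05 and the other 3 trained HCR rats gave 14.27 to 14.46.

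Across the whole table few differences passed. There were 3 that did, all of them lower in HCR sedentary rats (0.00966% of those tested), and 0 passed as higher (0%). At an unadjusted p under 0.05, 1126 probe sets were higher (3.63%) and 1472 lower (4.74%) in HCR. The median difference was 0.01 over all probe sets, and 84 of them differed by more than 1 log2 unit, 53 upward and 31 downward. None of the 3 that passed has a gene symbol in the platform annotation, so they are named by identifier and were chosen after their values were seen.

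Probe set 1374583_at fell in HCR sedentary soleus by a difference of -1.25 (SE 0.11, adjusted p 0.000386 with limma), which is a 2.38-fold higher signal in LCR. It read 6.55, 6.64, 6.72 and 6.93 in HCR rats, against 8.05, 8.08, 7.82 and 7.89 in LCR rats. Between the lines there was no overlap, and the gap was wider than the range within either. In trained rats, which are other animals, it read 6.72, 6.83, 6.28 and 6.67 in HCR and 7.65, 7.78, 7.81 and 7.71 in LCR. The separate fit of the 8 trained arrays also passed it (adjusted p 0.00734, limma), so this probe set differed between the lines in both training states.

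Probe set 1380976_at fell by a difference of -0.62 (SE 0.09, adjusted p 0.0498, limma), with 5.47, 5.77, 5.69 and 5.67 in HCR rats, against 6.09, 6.28, 6.45 and 6.25 in LCR rats. Every HCR array lay below every LCR array, at low signal near the 40th percentile. Among trained rats its difference was -0.41, and the groups again did not overlap. Probe set 1373602_at fell by a difference of -0.55 (SE 0.08, adjusted p 0.0498, limma), with 7.26, 6.97, 7.24 and 7.33 in HCR rats, against 7.83, 7.81, 7.65 and 7.69 in LCR rats. Its trained difference was -0.12, with overlap between the lines. Both probe sets sat close to the threshold, and neither passed on the 8 sedentary arrays alone, with adjusted p of 0.217 for 1380976_at and 0.312 for 1373602_at in limma.

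**Figure D1:**
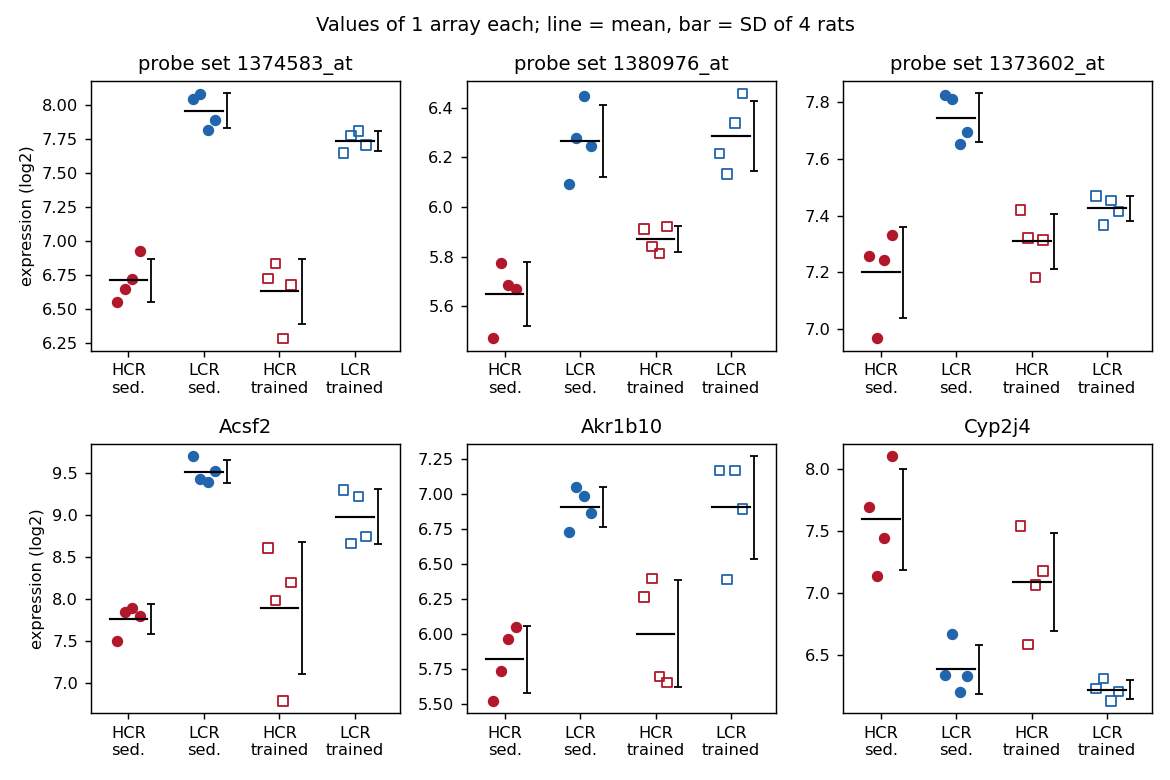
Expression (log2 signal, vertical axis) of the 3 probe sets that passed and of Acsf2, Akr1b10 and Cyp2j4, 1 point per array, in HCR sedentary, LCR sedentary, HCR trained and LCR trained rats, with the mean as a line and the SD as a bar. The HCR and LCR sedentary points do not overlap in any of the 6 panels. Between the trained lines 1373602_at overlaps and Akr1b10 overlaps narrowly.

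No gene with a symbol passed, and the lowest adjusted p among them was 0.112 in limma. The genes of smallest p are described because they head the ranking, not as changes. Acsf2, a mitochondrial acyl-CoA synthetase that activates fatty acids, averaged 7.76 ± 0.18 in HCR rats and 9.51 ± 0.14 in LCR rats (SD, n = 4 each). Its array values were 7.50, 7.84, 7.90 and 7.80 in HCR rats, against 9.70, 9.43, 9.39 and 9.52 in LCR rats. No values overlapped, and HCR 2 lay among the other HCR arrays. The difference was -1.75 (SE 0.28, 95% interval -2.36 to -1.15), with an adjusted p of 0.112 in limma. On the 8 sedentary arrays alone the same difference had an adjusted p of 0.00221 in limma. The spread shared over all groups takes in HCR trained 3, where Acsf2 read 6.78 and the other 3 trained HCR rats gave 7.98 to 8.61. Without HCR trained 3 the adjusted p was 0.000514 (limma). Trained rats differed by -1.09, again without overlap.

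Cyp2j4, a cytochrome P450 that oxidises arachidonic acid, led the opposite direction. It read 7.69, 7.14, 7.45 and 8.11 in HCR rats, against 6.34, 6.67, 6.20 and 6.33 in LCR rats. The groups did not overlap, and HCR 2 was the lowest HCR array, so the difference of 1.21 (SE 0.20, adjusted p 0.112, limma) became 1.37 without it. Trained HCR rats read 7.54, 6.58, 7.07 and 7.18, against 6.23, 6.31, 6.13 and 6.20 in trained LCR rats, a difference of 0.88 without overlap.

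Akr1b10, an aldo-keto reductase that reduces aldehydes, read 5.52, 5.74, 5.97 and 6.05 in HCR rats, against 6.73, 7.05, 6.98 and 6.87 in LCR rats. The difference was -1.09 (SE 0.20, adjusted p 0.185, limma) and the groups did not overlap. Another, brighter probe set of Akr1b10 differed by -0.28 in sedentary and by 0.42 in trained rats, so the probe sets disagree in size and, in trained rats, in sign.

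The sequences before the starts of Cyp2j4 and Akr1b10 are shown as examples. At the probe sets described, these genes kept the direction of their line difference in both training states, as other genes of smallest p also did. They are RefSeq windows of 300 bases around the start site on assembly GRCr8, written 5′ to 3′ on the gene's strand. Capitals mark the letters of a motif. Cyp2j4 lies on the minus strand at chr5:116322993-116323292, and Akr1b10 on the plus strand at chr4:64005382-64005681.
Cyp2j4: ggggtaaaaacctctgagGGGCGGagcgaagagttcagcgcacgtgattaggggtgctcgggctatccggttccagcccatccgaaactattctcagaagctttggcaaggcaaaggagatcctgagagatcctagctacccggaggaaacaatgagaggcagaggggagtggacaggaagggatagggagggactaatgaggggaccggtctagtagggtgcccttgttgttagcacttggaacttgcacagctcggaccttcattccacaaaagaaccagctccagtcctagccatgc
Akr1b10: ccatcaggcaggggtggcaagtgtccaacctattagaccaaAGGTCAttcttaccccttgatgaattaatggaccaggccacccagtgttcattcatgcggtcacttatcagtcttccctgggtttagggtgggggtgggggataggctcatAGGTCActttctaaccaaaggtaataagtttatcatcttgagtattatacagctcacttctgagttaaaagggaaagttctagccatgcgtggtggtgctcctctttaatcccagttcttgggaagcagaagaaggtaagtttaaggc
The search, on both strands, was for the TATA box TATAAA, the CCAAT motif, the GC box GGGCGG and the nuclear receptor half-site AGGTCA. The Cyp2j4 window held 1 GC box, at position -232 from the start site, which 33.1% of all 33469 windows hold. The Akr1b10 window held 2 AGGTCA copies, the first at -209, and 16.2% of windows hold at least 1 copy. Neither window held TATAAA, found in 14.2% of windows, or CCAAT, found in 37.5%. A match describes the letters and no more.

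The other genes of smallest p below LCR were mostly at moderate signal. Cemip2, a cell-surface hyaluronidase, read 4.88, 4.93, 5.94 and 4.91 in HCR rats, against 6.63, 6.97, 6.51 and 6.94 in LCR rats (difference -1.60, adjusted p 0.294, limma), with HCR 3 nearest to LCR. Adamtsl1, a secreted matrix protein, differed by -0.76, Coro7, a coronin of the Golgi, by -0.73, and Pals2, a membrane scaffold, by -0.61. Syde1 differed by -0.56, Mmp24, a membrane-bound metalloproteinase, by -0.53, and Nmnat1, which makes NAD in the nucleus, by -0.53. Dcun1d1, which acts in neddylation, differed by -0.39, Bfsp2, a lens filament protein, by -0.38, and C20h22orf15 by -0.28. Further probe sets of these genes varied in size. They differed by -0.10 and -0.02 for Syde1, by -0.54 and 0.01 for Mmp24, and by -0.35 and -0.07 for Dcun1d1. For Pals2 the brighter ones differed by -0.25 and -0.04, and the dimmer ones by -0.44 and -0.40. In all 12 genes of smallest p in this direction the 4 HCR values lay below the 4 LCR values, against 3.28% of all 14217 genes (2.36% in the opposite direction). These genes were picked by their p, so that count was fixed by the choice.

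Among the 12 genes of smallest p above LCR, differences were at most 0.39 except for Cyp2j4, Olfml3 and C1qtnf2. Olfml3, a secreted glycoprotein, differed by 0.80 and read 7.83, 8.85, 7.79 and 7.77 in HCR rats, against 6.96, 7.63, 6.98 and 7.48 in LCR rats. HCR 2 was its highest array, and without it the difference was 0.54. C1qtnf2, a secreted relative of adiponectin, differed by 0.60, Chchd6, of the complex that shapes mitochondrial cristae, by 0.39, and Arrdc1, an arrestin-domain protein, by 0.35. Alg14, of N-glycan synthesis, differed by 0.33, Fosl1, a subunit of the AP-1 transcription factor, by 0.31, and Katnbl1, a katanin relative, by 0.29. A brighter probe set of Katnbl1 differed by -0.03, and its dimmer ones by 0.06 and 0.05. Ngef differed by 0.28, Hfe, an iron regulator, by 0.28, Nudt16, a nucleotide hydrolase, by 0.28, and Galnt6, which starts O-glycans, by 0.28. In 10 of the 12 the groups did not overlap.

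Trained rats of the same lines matched these genes in part. Of the 12 genes above LCR, 9 had the same sign in trained rats, and Cyp2j4 and Nudt16 reached an unadjusted p under 0.05 with that sign in the trained arrays alone, where 11% of probe sets were higher and 8.89% lower at that level. Katnbl1 reached it with the opposite sign, at -0.19. Of the 12 below LCR, 7 had the same sign, and Acsf2, Akr1b10 and Adamtsl1 reached that level with it. C20h22orf15 and Nmnat1 reached it with the opposite sign. C20h22orf15 read 6.09, 6.05, 6.07 and 6.04 in HCR sedentary rats, against 6.46, 6.28, 6.38 and 6.23 in LCR sedentary rats, and its trained difference was 0.30. Nmnat1 differed by 0.32 in trained rats. Over all probe sets, 0 passed the test of whether the line difference depended on training (0%), where the lowest adjusted p was 0.0801 in limma. In that test 5673 of 31042 probe sets had an unadjusted p under 0.05. The sedentary line difference had fewer at that level, 1126 higher and 1472 lower.

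Over the whole table, shares in the same direction lay below those of all probe sets in trained rats (11% higher and 8.89% lower). Of 884 probe sets above LCR at an unadjusted p under 0.05 in the 8 sedentary arrays alone, 82 were also above in trained rats (9.28%) and 65 below (7.35%). Of 1347 below LCR, 76 were also below in trained rats (5.64%) and 255 above (18.9%). Groups without overlap gave the same picture. Sedentary rats had 691 such probe sets above LCR (2.23% of all) and 820 below (2.64%), and trained rats had 2361 above (7.61%) and 1861 below (6%). Of the 691, 32 were also above without overlap in trained rats (4.63%, or 1.36% of the trained ones) and 20 below (2.89%). Of the 820, 23 were also below (2.8%, or 1.24% of the trained ones) and 90 above (11%).

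**Figure D2:**
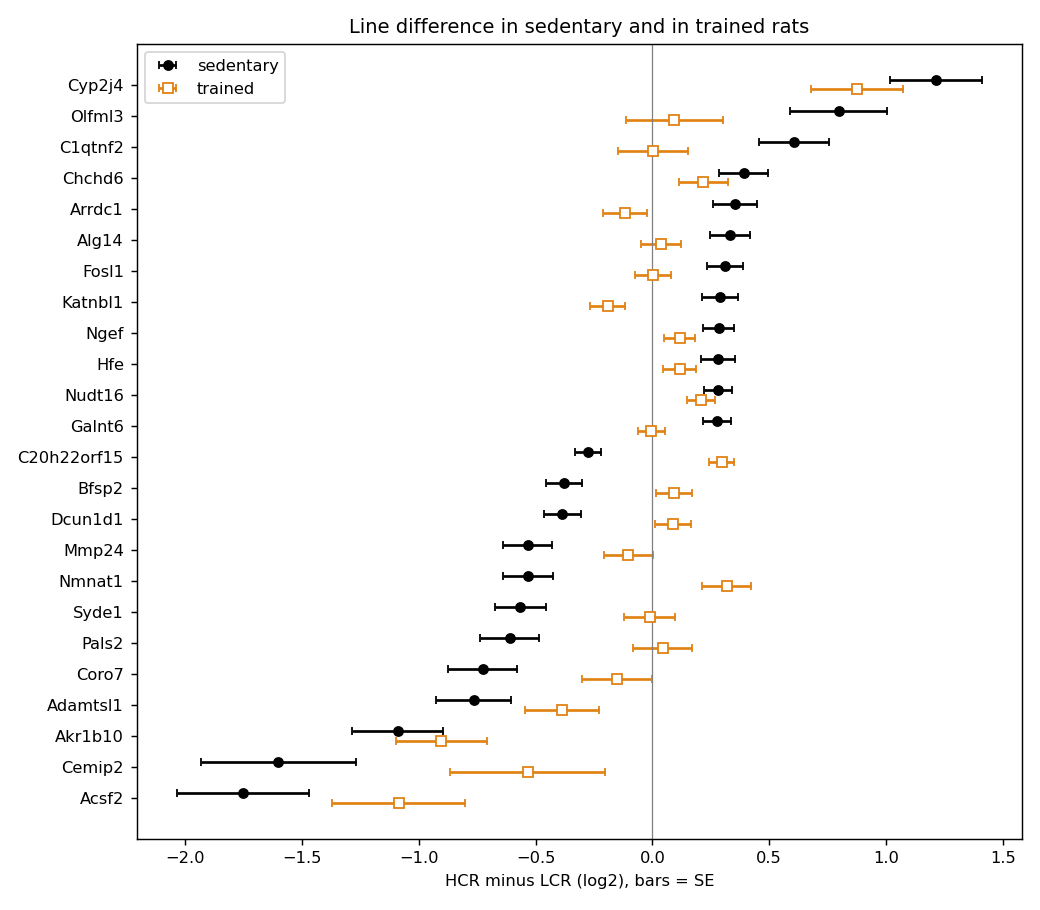
Line difference (HCR minus LCR, log2, horizontal axis, bars are SE) of the 24 genes of smallest p, as black circles in sedentary and open orange squares in trained rats. Acsf2 lies at -1.75 sedentary and -1.09 trained and Cyp2j4 at 1.21 and 0.88, while C20h22orf15 and Nmnat1 lie on opposite sides of 0 in the 2 states.

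At their brightest probe sets the myosins and troponins of slow fibres lay close together in the untrained lines. Myh7, the slow myosin heavy chain, read 14.50, 14.42, 14.52 and 14.39 in HCR rats, against 14.42, 14.46, 14.48 and 14.52 in LCR rats. The groups overlapped, and within-group SDs were 0.06 in HCR and 0.04 in LCR. The fitted difference of -0.01 (0.001 without HCR 2) has a 95% interval of -0.81 to 0.79, and HCR trained 3 enters the spread behind it. Another Myh7 probe set, of lower signal, spread widely within both lines. It read 13.8, 13.4, 13.7 and 11.1 in HCR rats, against 10.4, 12.1, 13.8 and 13.9 in LCR rats. Its difference was 0.44 (SE 1.17), and -4.32 in trained rats, so the Myh7 probe sets disagree. The slow troponins Tnni1 and Tnnt1 differed by -0.02 and -0.03 (0.02 each without HCR 2). Myh2, the fast oxidative myosin, differed by 0.20 and Myh1, the myosin of type 2X fibres, by -0.01 (-0.04 without HCR 2). None of these passed, and the adjusted p lay between 0.71 and 0.996 in limma.

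Myh4, the myosin of the fastest fibres, showed the hold of 1 array. It read 4.76, 8.03, 4.88 and 5.05 in HCR rats, against 4.83, 5.13, 5.03 and 5.10 in LCR rats. HCR 2 alone was high, and the difference of 0.66 became -0.13 without it. Of 18 slow fibre genes 0 reached an unadjusted p under 0.05. The median difference was -0.01, with 8 differences positive and 10 negative. Without HCR 2 the median was 0.02, 17 were positive and 1 negative, and again 0 reached that level. In 3 of the 18 the HCR values lay above the LCR values without overlap, where 2.36% of all genes did. Csrp3, a muscle LIM protein of the sarcomere, read 12.93, 13.84, 12.45 and 13.33 in HCR rats, against 12.27, 12.17, 12.23 and 12.44 in LCR rats. HCR 3 lay just above LCR 4, and the difference of 0.86 (adjusted p 0.635, limma) was 0.62 without HCR 2 and -0.86 in trained rats. The others were Ankrd2, a stretch-responsive muscle protein, at 0.44, and Fhl1, a LIM protein, at 0.09, both chosen after their values were seen. Of 19 fast fibre genes 0 reached an unadjusted p under 0.05. Their median was -0.01 (-0.0024 without HCR 2), beside -0.00304 over all genes. Tnni2, Tnnt3 and Tnnc2, the fast troponins, were lowest on LCR 4, at 11.94, 11.53 and 12.65, and lay between 12.41 and 13.78 on the HCR arrays.

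Genes of fuel oxidation, the textbook complement of an oxidative fibre, had list medians near 0 once HCR 2 was set aside. In this paragraph and those that follow, counts of list members at an unadjusted p under 0.05 stand against 3.91% of all genes above LCR and 5.99% below. Without HCR 2 that background was 2.02% above and 3.21% below. Of 24 fatty acid oxidation genes, 0 were above and 1 below LCR, Pecr, a peroxisomal enoyl-CoA reductase, at -0.38 (-0.24 without HCR 2), and all 24 differences were negative, with a median of -0.20. Their mean level per array, relative to the 16-array mean, was 0.22, -0.98, 0.16 and 0.10 in HCR rats, against 0.02, 0.15, 0.19 and -0.02 in LCR rats. HCR 2 alone was low. Without it the median was 0.06, 18 of 24 were positive, and 0 reached an unadjusted p under 0.05.

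Single genes of the pathway showed the same. Hadha, a subunit of the trifunctional protein of beta-oxidation, read 12.08, 10.71, 11.94 and 11.80 in HCR rats, against 11.75, 11.79, 11.93 and 11.59 in LCR rats. Its difference was -0.13 with HCR 2 and 0.18 without it. Cpt1b, the muscle gate for fatty acid entry into mitochondria, read 12.37, 11.42, 12.33 and 12.36 in HCR rats, against 12.31, 12.31, 12.32 and 12.36 in LCR rats. HCR 2 alone was low, and the other 7 arrays nearly coincided. Acaa2, the thiolase of the same pathway, differed by -0.52 with HCR 2 and by -0.07 without it.

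**Figure D3:**
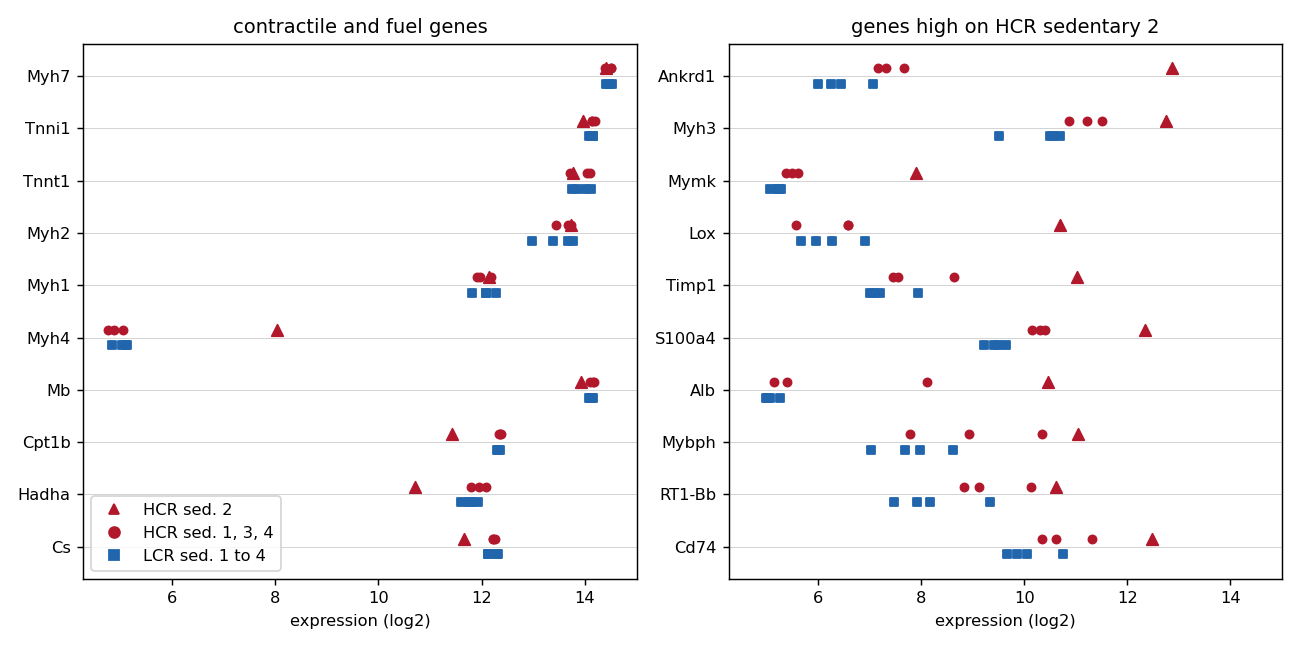
Expression (log2 signal, horizontal axis) of 10 contractile and fuel genes (left panel) and 10 genes high on HCR sedentary 2 (right panel), 1 point per array, HCR in red above LCR in blue, with HCR sedentary 2 as a triangle. Myh7 values coincide between the lines, while the triangle lies apart for Myh4, Hadha, Cpt1b and the genes of the right panel.

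Uptake and storage of fatty acids held Acsf2 as its outlying member. Of 22 such genes 0 were above and 2 below LCR at an unadjusted p under 0.05, Acsf2 and Dgat1, which makes triglyceride, and the median was -0.11, or 0.09 without HCR 2. Dgat1 read 8.81, 8.34, 9.03 and 8.96 in HCR rats, against 9.20, 9.06, 9.06 and 9.04 in LCR rats. Its groups did not overlap, but HCR 3 lay close below the lowest LCR array, and the difference of -0.31 was -0.16 without HCR 2. Slc27a1, a fatty acid transporter, differed by -0.59 (-0.31 without HCR 2), Cd36 by -0.09 and Lpl, the lipoprotein lipase, by -0.12, and Cd36 and Lpl lay at 0.12 each without HCR 2. Without that array 2 of the 22 were above LCR and 1, Acsf2, below. Those above were Plin5, a coat protein of muscle lipid droplets, at 0.57, and Pnpla2, a triglyceride lipase, at 0.43, both chosen after their values were seen. Plin5 read 7.65, 5.59, 7.72 and 8.10 in HCR rats, against 7.11, 7.48, 7.43 and 6.99 in LCR rats, with HCR 2 alone below LCR.

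The citric acid cycle and respiratory chain gave small differences, mostly negative with all 8 arrays. Of 20 cycle genes 17 differences were negative (median -0.16), and of 72 respiratory chain and ATP synthase genes 66 were negative (median -0.10). Over all genes 49% of differences were positive. At an unadjusted p under 0.05, 0 cycle genes were above LCR and 1 below, and 1 chain gene was above and 2 below. Sdha, the flavoprotein of complex II, was below LCR in both lists and read 11.89, 11.26, 11.85 and 11.77 in HCR rats, against 11.90, 11.98, 12.03 and 11.96 in LCR rats. The groups did not overlap, and the difference was -0.27 with HCR 2 and -0.13 without it. Cox5a, a subunit of complex IV, went the opposite way, with 8.02, 7.41, 7.74 and 8.11 in HCR rats, against 7.29, 7.45, 7.69 and 7.49 in LCR rats (difference 0.34, adjusted p 0.565, limma). HCR 2 was the lowest HCR array, and the other HCR arrays lay above all LCR arrays. Without HCR 2 the list medians were -0.03 for the cycle and 0.01 for the chain. The cycle then had 8 positive and 12 negative differences, and the chain 40 positive and 32 negative.

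The mitochondrial ribosome, which translates mitochondrial messages, had the largest count below LCR among mitochondrial lists. Of 72 genes 9 were below at an unadjusted p under 0.05 and 0 above, 65 differences were negative, and the median was -0.11. Mrps27 read 7.87, 7.40, 8.00 and 8.20 in HCR rats, against 8.43, 8.36, 8.31 and 8.34 in LCR rats. Mrpl28, Mrpl44 and Mrpl15 differed by -0.30, -0.34 (-0.22 without HCR 2) and -0.25. Their groups did not overlap except for Mrpl15, and HCR 2 was the lowest array for each. Without HCR 2, 3 of 72 were below and the median was -0.04.

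Regulators of mitochondrial number held 3 of 31 genes below and 1 above, with a median of -0.10. Without HCR 2, Polrmt alone was below, 0 were above, and the median was -0.03. Polrmt, the mitochondrial RNA polymerase, read 7.64, 7.06, 7.58 and 7.73 in HCR rats, against 7.90, 7.93, 7.82 and 7.86 in LCR rats (difference -0.37, adjusted p 0.53, limma, or -0.23 without HCR 2). Its groups did not overlap. Tfb2m, its initiation factor, differed by -0.40 (-0.21 without HCR 2), Polg, the mitochondrial DNA polymerase, by -0.18, and Nrf1, an activator of nuclear genes for mitochondria, by 0.18. Ppargc1a, the coactivator that drives mitochondrial biogenesis, read 8.18, 7.13, 8.09 and 7.54 in HCR rats, against 7.55, 7.64, 7.99 and 8.08 in LCR rats. Its groups overlapped (difference -0.08, or 0.12 without HCR 2). Another Ppargc1a probe set of similar signal read 7.73, 5.58, 7.43 and 7.21 in HCR rats, against 7.34, 7.84, 7.71 and 7.74 in LCR rats. HCR 2 was its lowest array, and its difference was -0.67 (adjusted p 0.615, limma). A dim probe set of the gene differed by 0.12, so the probe sets disagree in size and sign. Cs, citrate synthase, and Mb, myoglobin, differed by -0.12 and -0.03, and by 0.02 each without HCR 2.

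Amino acid breakdown had the lowest list median with all 8 arrays. Of 26 genes 5 were below LCR at an unadjusted p under 0.05 and 0 above, and the median was -0.22, or -0.06 without HCR 2, when 3 were below and 2, Prodh and Bckdhb, above. Mccc1, a subunit of the carboxylase of leucine breakdown, read 8.86, 8.33, 8.70 and 8.95 in HCR rats, against 9.64, 9.48, 9.29 and 9.16 in LCR rats. The groups did not overlap, and the difference was -0.68 (adjusted p 0.344, limma) and -0.55 without HCR 2. Trained rats gave 0.18. Bcat2, the first enzyme of branched-chain amino acid breakdown in muscle, differed by -0.47, Pccb, of propionyl-CoA carboxylase, by -0.37, and Mmut, methylmalonyl-CoA mutase, by -0.47. Without HCR 2 the difference was -0.30 for Bcat2 and -0.21 for each of Pccb and Mmut.

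Sugar metabolism was mixed. Of 30 glycolysis and glycogen genes 2 were above LCR and 0 below, with a median of -0.14. Without HCR 2, 0 were above or below and the median was -0.06. Pfkl, a phosphofructokinase of liver type, differed by 0.43 and Pgam1, phosphoglycerate mutase, by 0.42 (0.23 without HCR 2). Of 22 genes of glucose uptake and insulin signalling 2 were above and 0 below. Pik3r1, the regulatory subunit of PI 3-kinase, read 7.46, 6.58, 7.43 and 6.76 in HCR rats, against 5.68, 6.01, 6.26 and 6.71 in LCR rats. HCR 2 lay between LCR 3 and LCR 4, so the groups overlapped, and the difference of 0.90 (adjusted p 0.467, limma) was 1.06 without HCR 2. Trained rats gave -0.31. Slc2a4, the insulin-regulated glucose transporter, differed by -0.39, and by -0.10 without HCR 2, while Pdk4, a brake on pyruvate oxidation, spread from 9.54 to 11.45 in HCR rats and from 8.87 to 11.89 in LCR rats.

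**Figure D4:**
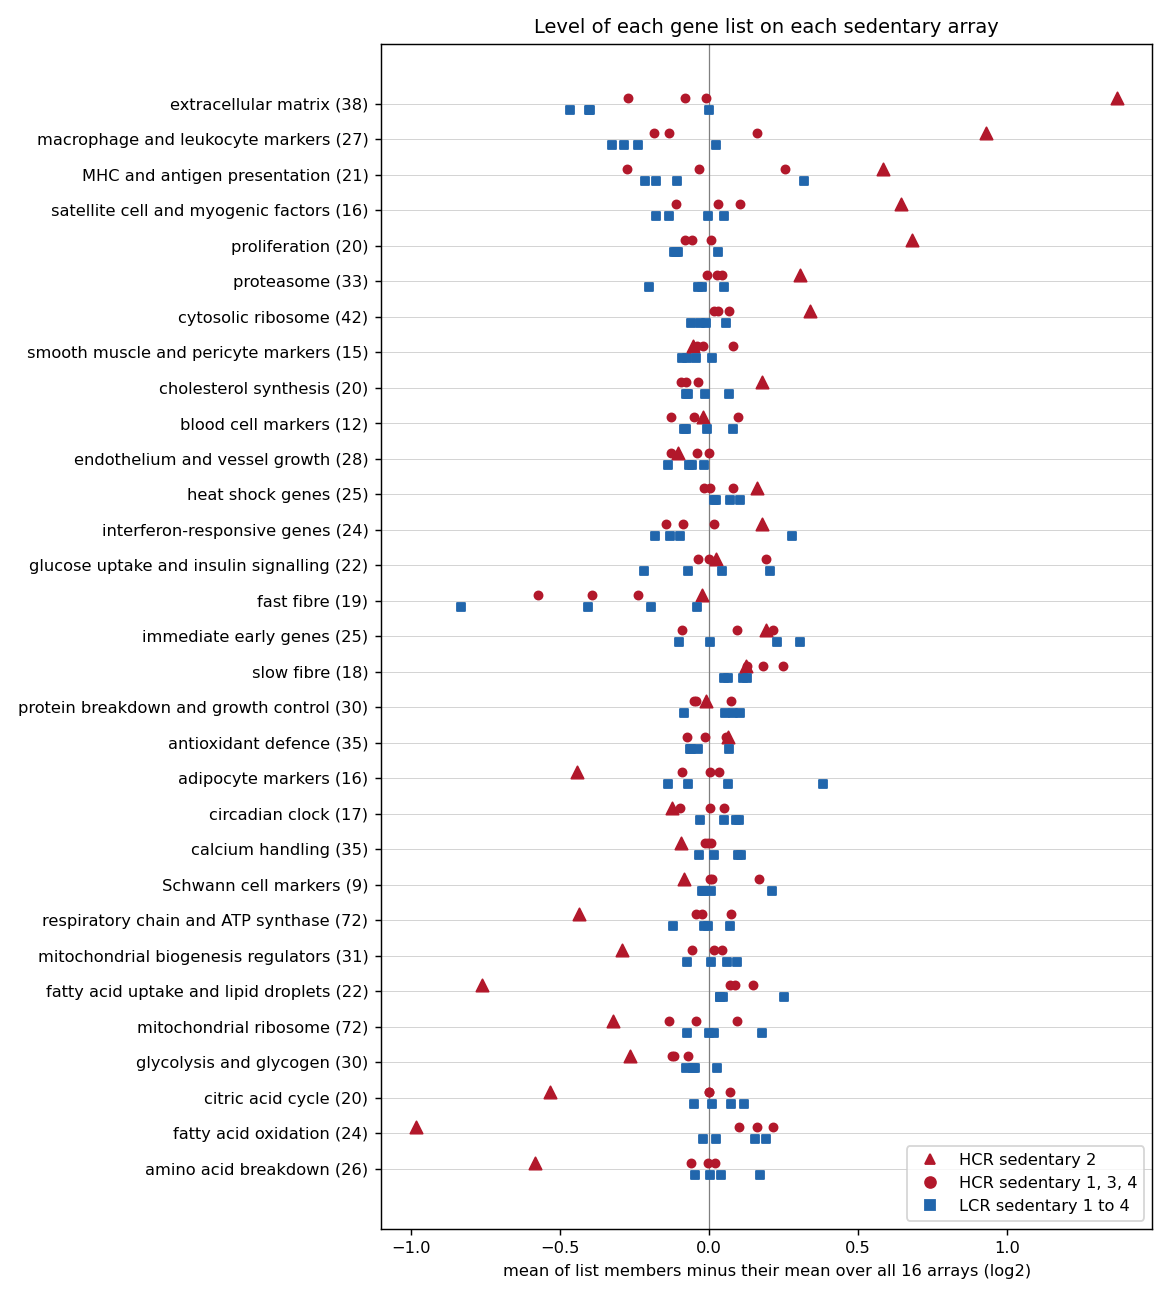
Mean level of the members of each gene list on each sedentary array, relative to their 16-array mean (log2, horizontal axis), HCR above LCR, with HCR sedentary 2 as a triangle and the number of measured genes in parentheses. HCR sedentary 2 lies at 1.37 for extracellular matrix and at -0.98 for fatty acid oxidation, outside all other arrays.

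The matrix and macrophage lists had the highest medians above LCR, and both medians fell but stayed positive without HCR 2. In bulk muscle, more cells of a type and more RNA per cell cannot be told apart. Of 38 extracellular matrix genes 8 were above LCR at an unadjusted p under 0.05 and 0 below, with a median of 0.61. The list level was -0.08, 1.37, -0.01 and -0.27 in HCR rats, against -0.40, 0.00, -0.40 and -0.47 in LCR rats. HCR 2 lay highest, and LCR 2 lay above the other 3 HCR arrays. With all arrays 36 of the 38 differences were positive. Without HCR 2 the median was 0.24, 33 differences were positive, and 0 genes were above at that level. Lamb1, a laminin of the basement membrane, read 8.61, 9.67, 8.53 and 8.34 in HCR rats, against 8.16, 8.21, 8.16 and 7.90 in LCR rats. Its groups did not overlap and its difference was 0.68 with HCR 2 and 0.39 without it. Col6a3, a chain of collagen VI, differed by 1.09 (0.53 without HCR 2), with 9.82, 11.79, 9.78 and 9.03 in HCR rats, against 8.82, 9.43, 9.01 and 8.81 in LCR rats.

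Of 27 macrophage and leukocyte markers 6 were above LCR and 0 below, with a median of 0.47, and the list level ranged from -0.18 to 0.93 in HCR rats and from -0.33 to 0.02 in LCR rats. Lyz2, macrophage lysozyme, read 11.18, 13.01, 11.17 and 11.60 in HCR rats, against 10.67, 11.42, 10.45 and 11.01 in LCR rats. HCR 2 was the highest, and LCR 2 lay among the other HCR arrays. Its difference was 0.85, or 0.43 without HCR 2. C1qb, of complement, differed by 0.67 (0.29 without HCR 2) and Fcgr2b, an antibody receptor, by 0.90 (0.56). With all arrays 26 of the 27 differences were positive. Without HCR 2 the median was 0.14, 25 differences were positive, and 0 of 27 were above at an unadjusted p under 0.05. Whether immune cells take part in the differences of other lists was not tested.

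The list of MHC and antigen presentation genes, of class I and class II, had equal counts with and without HCR 2. Of 21 MHC and antigen presentation genes 5 were above and 1 below LCR with all arrays, and again 5 and 1 without HCR 2, with medians of 0.21 and 0.17. RT1-Bb, a class II beta chain, read 9.12, 10.62, 8.83 and 10.13 in HCR rats, against 7.91, 9.34, 8.18 and 7.48 in LCR rats. LCR 2 alone overlapped HCR, and the difference was 1.45 (adjusted p 0.53, limma). RT1-Db1 differed by 1.48 (0.94 without HCR 2) and Cd74, the invariant chain that escorts class II, by 1.11 (0.68). In trained rats these 3 differed by -0.71, -0.62 and -0.60. RT1 genes are polymorphic and have near-identical copies, so signals of single RT1 probe sets are uncertain as measures of expression. RT1-Ba, a class II alpha chain chosen after its values were seen, differed by -0.57 at its brightest probe set (-1.96 trained) and by 1.52 at another. RT1-CE10, a class I gene, was below LCR in both states, by -1.61 sedentary and -1.59 trained, and read 7.06, 6.30, 6.55 and 6.56 in HCR rats, against 8.27, 9.14, 6.75 and 8.75 in LCR rats. LCR 3 lay within the HCR range.

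Regeneration and growth genes were highest on HCR 2, and those named in this paragraph other than Mymk were chosen after their values were seen. Ankrd1, a stress-responsive muscle gene, read 7.16, 12.88, 7.66 and 7.33 in HCR rats, against 6.01, 6.26, 6.45 and 7.06 in LCR rats. Myh3, the embryonic myosin, read 10.88, 12.74, 11.22 and 11.51 in HCR rats, against 10.70, 9.51, 10.56 and 10.50 in LCR rats. Mymk, which fuses myoblasts, read 5.38, 7.89, 5.61 and 5.50 in HCR rats, against 5.24, 5.06, 5.27 and 5.23 in LCR rats. In these values of all 3 genes the other HCR arrays lay slightly above the LCR arrays and HCR 2 far above. At another Ankrd1 probe set HCR 4, at 6.97, lay below LCR 4, at 7.17. Timp1, a metalloproteinase inhibitor, reached 11.02 and Lox, a collagen cross-linker, 10.70 on HCR 2. None passed, and for these 5 genes the adjusted p ranged from 0.592 to 0.732 in limma.

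Of 16 satellite cell and myogenic genes 1 was above and 0 below LCR, and of 20 proliferation genes 2 were above and 0 below, though 11 of the proliferation genes were dim, under that percentile of signal. Their levels on HCR 2 were 0.65 and 0.68, against at most 0.11 on every other sedentary array. Plk1, a mitotic kinase, read 6.60, 6.84, 6.70 and 6.59 in HCR rats, against 6.43, 6.42, 6.41 and 6.55 in LCR rats. The groups did not overlap, and the difference was 0.23, or 0.18 without HCR 2.

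**Figure D5:**
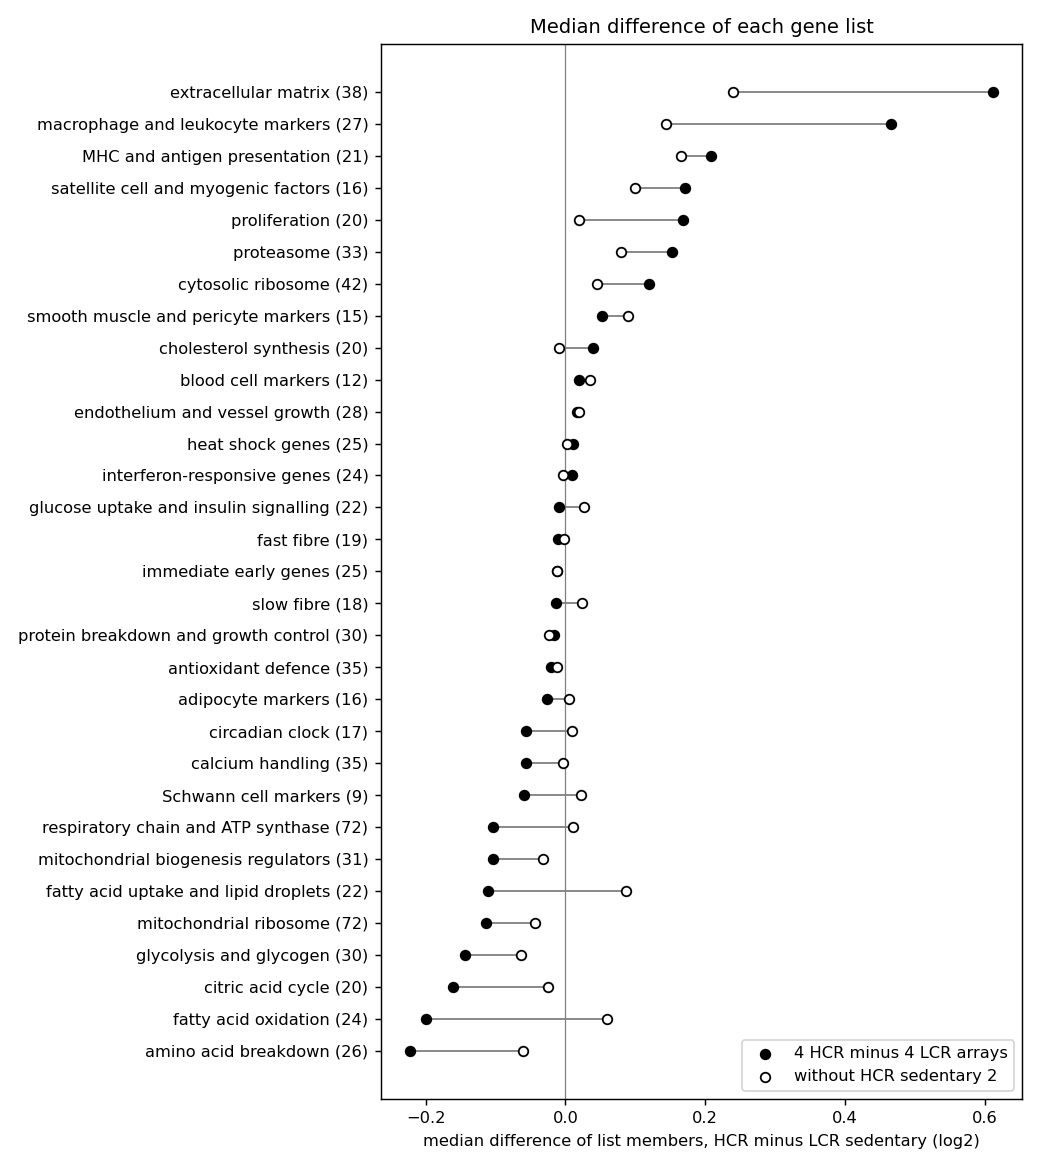
Median difference of the members of each list (HCR minus LCR sedentary, log2, horizontal axis) with all 8 arrays as filled points and without HCR sedentary 2 as open points. Extracellular matrix lies at 0.61 with that array and at 0.24 without it, and fatty acid oxidation lies at -0.20 with that array and at 0.06 without it.

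Ribosome and proteasome genes had positive medians. All 42 measured genes of the cytosolic ribosome had positive differences, with a median of 0.12, but 1 was above at an unadjusted p under 0.05, Rpl35a at 0.22 (0.14 without HCR 2), a smaller share than over all genes. Without HCR 2 the median was 0.05 and 0 were above. Of 33 proteasome genes 4 were above and 0 below, with a median of 0.15, or 0.08 and 1 above, Psma3, without HCR 2. Psma3, a subunit of the core particle, read 8.05, 8.00, 7.98 and 8.17 in HCR rats, against 7.92, 7.86, 7.70 and 7.69 in LCR rats. Its groups did not overlap, HCR 2 lay among the others, and trained rats gave 0.27 beside 0.26 in sedentary rats. Of 30 genes of protein breakdown and growth control 4 were above and 3 below, and without HCR 2, 0 were above and 2 below, Ulk1 and Acvr2b. The median was -0.02 in both cases. Ulk1, a kinase that starts autophagy, differed by -0.37, Acvr2b, a receptor for myostatin, by -0.47, Ctsl, a lysosomal protease, by 0.36 (0.20 without HCR 2), and Igf1r, the IGF1 receptor, by 0.19. Mstn, myostatin itself, read between 4.30 and 4.49 in HCR rats and between 4.34 and 4.46 in LCR rats.

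Calcium handling had 4 of 35 genes below LCR and 0 above, with a median of -0.06. Without HCR 2, Nfatc1, Stim1 and Nfatc2 were below and the median was -0.0036. Nfatc1, the calcineurin-driven factor of slow fibre programmes, read 9.58, 8.85, 9.58 and 9.55 in HCR rats, against 9.89, 9.87, 9.72 and 9.72 in LCR rats. Its groups did not overlap, and its difference was -0.41, or -0.23 without HCR 2. Stim1, a calcium sensor of the reticulum, differed by -0.33, S100a1 by -0.59 and Mef2a, a muscle transcription factor, by -0.18. Without HCR 2 these differences were -0.22, -0.27 and -0.12.

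Stress and lipid synthesis lists held few members below or above. Of 25 heat shock genes 1 was below and 0 above, Hspa2, with 6.37, 6.79, 6.41 and 6.32 in HCR rats, against 6.96, 6.99, 7.37 and 7.29 in LCR rats. Its groups did not overlap in either training state, and its differences were -0.68 sedentary and -1.04 trained. Of 35 antioxidant genes 0 were above and 0 below, with Txn1 at 0.26, or 0.10 without HCR 2. Of 20 cholesterol synthesis genes 3 were below and 1 above, with a median of 0.04. Without HCR 2, Pmvk alone was below, 0 were above, and the median was -0.00912. Pmvk, phosphomevalonate kinase, read 8.52, 7.85, 8.27 and 8.08 in HCR rats, against 8.54, 8.52, 8.71 and 8.70 in LCR rats, with HCR 1 close to LCR 2, and differed by -0.44 sedentary and -0.34 trained.

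Vessel, clock and early response lists held counts near the share over all genes. Of 28 endothelial and vessel growth genes 1 was above, Nrp2 at 0.24, and 1 below, Vegfb at -0.49, and 0 were either without HCR 2. Vegfa, the main vessel growth factor, differed by 0.07 with overlap (0.13 without HCR 2). Of 17 clock genes 0 were above and 1 below, Hlf, a clock output factor, at -0.66, or -0.38 without HCR 2, when Clock, at -0.48, was below as well. Of 25 immediate early genes 1 was above, Fosl1, and 1 below, Zfp36, which destabilises messages, at -0.33. Hours of sampling were not used here.

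Lists of other cell types, apart from the immune list, held few members above or below LCR. Single differences ran from -1.14 to 0.31 for adipocyte, from -0.44 to 0.54 for blood cell and from -0.62 to 0.42 for Schwann cell markers. Of 16 adipocyte markers 0 were above and 0 below, and Scd, a fatty acid desaturase, spread widely, with 8.04, 7.44, 7.90 and 7.59 in HCR rats, against 9.23, 9.01, 7.87 and 9.40 in LCR rats. LCR 3 lay among HCR. Of 12 blood cell markers and of 15 smooth muscle and pericyte markers 0 were above and 0 below. Of 9 Schwann cell markers 0 were above and 1 below, Prx at -0.21 (-0.13 without HCR 2). Of 24 interferon-responsive genes 1 was above, Ifih1 at 0.15, and 0 below.

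Some probe sets showed array values of an on and off kind, and those in this paragraph were chosen after their values were seen. Probe set 1370428_x_at, annotated to several RT1 genes, read 4.43, 9.37, 4.44 and 4.48 in HCR rats, against 9.10, 10.16, 8.47 and 9.79 in LCR rats. HCR 2 alone among HCR lay at the LCR level, and the difference was -3.70, or -4.93 without it, with -4.39 in trained rats. Among trained HCR rats HCR trained 3 was high as well, at 8.38, and the other 3 read 4.25 to 4.58. Fam111a read 9.14, 9.52, 4.74 and 8.72 in HCR rats, against 8.44, 4.51, 4.58 and 8.60 in LCR rats, so both lines held high and low rats. Probe set 1371776_at read 6.69, 5.81, 5.77 and 5.61 in HCR rats, against 8.13, 8.28, 8.25 and 8.77 in LCR rats, without overlap (difference -2.39, adjusted p 0.0996, limma). Probe set 1371775_at, also without a symbol, went the opposite way by 0.79 and by 1.51 in trained rats, without overlap in either state.

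Acad9, which assembles complex I, had one of the larger differences above LCR. It read 10.89, 10.14, 11.18 and 10.42 in HCR rats, against 9.18, 8.47, 8.57 and 8.65 in LCR rats. The groups did not overlap, and the difference of 1.94 (adjusted p 0.44, limma) was 1.51 in trained rats, where HCR trained 3 at 8.32 overlapped LCR. Trim45, a ubiquitin ligase, differed by -1.11 sedentary and -0.80 trained. Acox2, a peroxisomal oxidase of branched fatty acids and bile acid precursors, read 5.64, 5.48, 5.58 and 5.82 in HCR rats, against 6.87, 6.88, 6.45 and 6.65 in LCR rats, a difference of -1.08 without overlap. Trained rats gave 0.21 for Acox2. These genes too were chosen after their values were seen.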

How the data were processed

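Total RNA of 16 soleus samples, 1 array per rat, was measured on an Affymetrix rat array; per the labels, only RNA without signs of degradation was used. The deposited values are log2 signals that the authors made with RMA, named together with limma in the submitters' processing notes, whose versions the sources used here leave unstated. RMA corrects background, normalizes arrays by quantiles and summarises probes, so a shift common to all probe sets is removed and differences are relative to the rest of the array. Array medians lay between 5.90 and 5.98. Scan batches were not used here, and precision is limited by the array number.

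Without the 57 control probe sets, 31042 were tested: 20826 had 1 gene symbol, 436 several and 9780 none in the platform annotation. Current entries in the RefSeq table of GRCr8 were found by gene identifier for 20758, and 0 symbols changed. limma 3.58.1 in R 4.3.3 fitted 4 group means over 16 arrays (12 residual degrees of freedom, empirical Bayes, Benjamini-Hochberg); the 8 sedentary and 8 trained arrays were also fitted alone. The script was tested on simulated data. Control measures had exact permutation tests over 70 splits.

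The members, 33 gene lists and naming rule were chosen with earlier results of these data known. In lists each gene had 1 probe set, its brightest. Lists needed 5 measured members and are described by counts and medians. Named were the 12 genes of smallest p in each direction (1 symbol, mean of the brighter group not under the 40th percentile), up to 4 members of smallest p per list, and key genes. Alternatives covered samples in the fit, normalization, centring, filtering, moderation, weights, covariates, a replicate block and leaving out arrays.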

Additional observations from a re-analysis of the deposited data

Results flagged for a closer look

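Of 328 groups of 4 arrays examined, 39 had 1 array so far from the other 3 that its gap filled more than 0.829 of the group's range. Chance alone flags about 1 in 20 such groups, many of the groups share HCR sedentary 2, and genes of 1 list are not independent.

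HCR sedentary 2 was the outlying array for 24 of these values. Among single genes it was low for Cpt1b (11.42), Cs (11.67), Acaa2 (9.88), Mgll (7.83), Ndufa8 (11.50), Cry1 (8.07), Nfatc1 (8.85) and Pdk2 (11.26). It was high for Olfml3 (8.85), Chchd6 (6.47), Myh4 (8.03), Txn1 (12.44), Psmc4 (10.92), Psmb1 (11.48), Mymk (7.89) and Ube2c (7.27). Among list levels it was low for fatty acid oxidation (-0.98), fatty acid uptake and lipid droplets (-0.76), the citric acid cycle (-0.53) and amino acid breakdown (-0.58). It was high for the cytosolic ribosome (0.34), extracellular matrix (1.37), the proteasome (0.31) and proliferation (0.68).

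Other HCR sedentary arrays stood out for single values. HCR sedentary 3 was low for C1qtnf2 (6.38) and high for Cemip2 (5.94). HCR sedentary 1 was high for Bfsp2 (5.50), where the other HCR arrays spanned 5.45 to 5.46. HCR sedentary 4 had the highest GAPDH index of its group (0.735).

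Among LCR sedentary arrays, LCR sedentary 1 stood out for Dgat1 (9.20), Psmb1 (10.81), the Schwann cell list level (0.214) and the proliferation list level (0.0308). LCR sedentary 2 stood out for Ppara (4.79) and the extracellular matrix list level (0.000243). LCR sedentary 3 stood out for Ucp3 (8.50), Pgam1 (9.76) and the fatty acid uptake list level (0.251), and LCR sedentary 4 for Lamb1 (7.90) and Plk1 (6.55).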

How the results depend on the processing

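Probe set 1374583_at passed under every setting run. The count of 3 probe sets that passed became 5 on the 8 sedentary arrays alone, 8 with array weights and 6 with the GAPDH index as covariate. It was 1 under quantile normalization, median centring, a filter on dim probe sets, variance trend with robust moderation, and the replicate block. Leaving out 1 or 2 arrays gave 1 to 10, with 1 without HCR sedentary 2, 6 without HCR trained 3 and 10 without both. Acsf2 passed in 4 of these settings and Cyp2j4 in 2. The replicate numbers do not pair the rats: same-numbered deviations correlated at -0.242, -0.047, 0.325 and -0.483, and 1 of 4 numbers matched best with itself. With the replicate block 1374583_at alone passed, and the loss of the other 2 has no bearing on their size. The median difference of all probe sets lay between -0.0193 (median centring) and 0.0148 (without LCR sedentary 1). The glycolysis list median ranged from -0.17 to -0.0636, the highest without HCR sedentary 2.

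Differences that did not pass turned sign for 17 genes, among them Myh4, at 0.66 in the main fit. Leaving out arrays gave these ranges: Myh7 -0.0316 to 0.0114, Myh1 -0.0963 to 0.061, Myh4 -0.13 to 0.96, Tnni1 -0.0518 to 0.0229, Tnnt1 -0.098 to 0.0359, Cox7a1 -0.17 to 0.23, Ppargc1a -0.23 to 0.12, Lpl -0.22 to 0.12, Cd36 -0.28 to 0.12, Cpt1b -0.29 to 0.0312, Mstn -0.019 to 0.0462, Acadl -0.28 to 0.0622, Hadha -0.28 to 0.18, Cs -0.18 to 0.0214 and Mb -0.0588 to 0.0222. The beta-actin index as covariate turned Myh7 (0.11), Myh4 (-0.66), Tnni1 (0.16), Tnnt1 (0.14), Ppard (0.0569), Lpl (0.21), Cpt1b (0.0494), Acadl (0.0871), Hadha (0.14), Cs (0.0502), Mb (0.0115) and Dcn (-0.058). The GAPDH index turned Myh7 (0.0303), Tnni1 (0.022), Tnnt1 (0.0300) and Mstn (-0.000419). Array weights turned Tnni1 (0.0174), Ppargc1a (0.0272), Lpl (0.0191), Acadl (0.048), Hadha (0.11), Cs (0.0185) and Mb (0.000959). Quantile normalization turned Tnni1 (0.000134) and Mstn (-0.0105), and median centring turned Mstn (-0.0200). The cause was not tested. List counts without HCR sedentary 2 were an alternative added after the data were seen.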
